A study of Mus musculus with 3 samples.

Results

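The 40 genes described here are cell cycle genes, 18 of S phase and 22 of G2 phase and mitosis (G2/M), among the 31053 mouse genes counted in the series. They were chosen by symbol, and all 40 are features of each of the 3 libraries. The S phase members are Mcm2, Mcm3, Mcm4, Mcm5, Mcm6, Mcm7, Pcna, Tyms, Rrm1, Rrm2, Gins2, Cdc6, Cdt1, Uhrf1, Hells, Pclaf, Ccne1 and Ccne2. The G2/M members are Top2a, Mki67, Birc5, Cdk1, Ube2c, Prc1, Ccna2, Ccnb1, Ccnb2, Plk1, Aurka, Aurkb, Bub1, Cenpe, Cenpf, Cenpa, Tpx2, Nusap1, Kif11, Kif20a, Cdc20 and Hmmr. Single cells were profiled by 10x Genomics 3′ RNA sequencing, in which unique molecular identifiers (UMIs) count molecules. The first library was made from wild-type C57BL/6 adult mouse bladder, pooled over 8 bladders of animals aged 8 to 9 weeks. The other libraries were made from bladder assembloids, structures rebuilt in culture from bladder cells, at 1 day and at 7 days after reconstitution, each pooled over 3 assembloids. The labels give no strain or genotype for the assembloids and do not list the cells put into them. The comparisons ask in which cell classes S phase and G2/M transcripts differ between the bladder and the assembloids, and between the assembloid ages.

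A dividing cell copies its DNA in S phase and separates the copies in mitosis. Genes for replication proteins, such as the Mcm helicase subunits, are transcribed around the G1/S transition under E2F factors. Genes for mitotic cyclins, kinases, kinesins and centromere proteins are transcribed later, under complexes that bind CCAAT boxes and the cell cycle genes homology region (CHR). The adult urothelium, the epithelium that lines the bladder, and the stroma beneath it turn over slowly at rest, and both can divide after injury.

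Each group is 1 library, so no comparison has a replicate check and no test was possible. Intervals in square brackets are 95% intervals of counting error only, and they do not cover the spread between animals or assembloids. After filtering, 6775 bladder cells, 8258 cells of the 1-day library and 8172 cells of the 7-day library were kept, with median depths of 7543, 14937.5 and 9399 mouse UMIs. The 7-day library stood apart because its cells fell into separate sides. To find these, the members and the lists of cell cycle and quiescence genes used below were left out. Other genes that follow the cell cycle could still enter, and their part in the sides was not tested. On this basis 3766 of its cells (46.1%, median 3187.5 UMIs) had mostly bladder cells as nearest neighbours among the other libraries. The remaining 4406 cells (53.9%, median 19714 UMIs) had mostly 1-day cells. These are called the bladder side and the assembloid side, and shares and counts of members that rest on the 7-day library are also given for the assembloid side. CPM of single members at 7 days are over all cells of a class unless a side is named. The libraries also share cell barcodes, with 21 between bladder and 1 day, 30 between bladder and 7 days and 114 between 1 and 7 days. Leaving the shared barcodes out moved none of the 28 share ratios computed below beyond its counting interval.

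Promoter sequences of the members differ in motifs between the S phase and the G2/M genes, and 6 are shown to make this visible. RefSeq windows from 250 bases before to 50 bases after the transcription start (GRCm38.p6, which is mm10) were matched for 33 of the 40 members. Both strands were searched for CCAAT, for the CHR letters TTTGAA, and for the E2F letters TTTCCCGC or TTTGGCGC. No motif contains another. The printed stretch runs 5′ to 3′ on the gene's strand from 170 bases before the start through the first 30 transcribed bases. Capitals mark a motif match on either strand. A CCAAT match on the opposite strand reads ATTGG here, a CHR match there reads TTCAAA, and a match to the first E2F form reads GCGGGAAA. Ube2c (chr2:164769759-164769958, plus strand), Top2a (chr11:99024160-99024359, minus strand) and Cdk1 (chr10:69352883-69353082, minus strand) are highly expressed G2/M members that hold a CHR match. Ccnb1 (chr13:100786457-100786656, minus strand) is a G2/M member with CCAAT matches and no CHR match in this stretch. Mcm6 (chr1:128359676-128359875, minus strand) and Pclaf (chr9:65890153-65890352, plus strand) are S phase members with E2F matches.
Ube2c: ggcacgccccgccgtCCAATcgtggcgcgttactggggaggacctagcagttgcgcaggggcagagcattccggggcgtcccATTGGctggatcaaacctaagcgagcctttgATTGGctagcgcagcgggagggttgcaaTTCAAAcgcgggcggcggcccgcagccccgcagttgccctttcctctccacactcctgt
Top2a: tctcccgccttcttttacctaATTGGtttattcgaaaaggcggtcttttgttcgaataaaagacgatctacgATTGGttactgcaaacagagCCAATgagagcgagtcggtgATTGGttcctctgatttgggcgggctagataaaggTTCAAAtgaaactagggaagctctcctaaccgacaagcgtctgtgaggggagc
Cdk1: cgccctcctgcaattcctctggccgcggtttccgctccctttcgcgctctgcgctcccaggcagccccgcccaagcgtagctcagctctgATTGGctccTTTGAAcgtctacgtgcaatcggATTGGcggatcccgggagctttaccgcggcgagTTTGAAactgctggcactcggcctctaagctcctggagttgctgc
Ccnb1: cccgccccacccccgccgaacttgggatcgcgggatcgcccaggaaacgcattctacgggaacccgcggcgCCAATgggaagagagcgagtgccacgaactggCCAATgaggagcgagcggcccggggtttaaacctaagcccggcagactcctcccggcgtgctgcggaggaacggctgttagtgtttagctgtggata
Mcm6: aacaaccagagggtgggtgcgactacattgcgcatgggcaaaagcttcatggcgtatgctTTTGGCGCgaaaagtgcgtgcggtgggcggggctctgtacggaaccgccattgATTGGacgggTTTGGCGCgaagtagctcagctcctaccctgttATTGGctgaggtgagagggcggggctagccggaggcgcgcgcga
Pclaf: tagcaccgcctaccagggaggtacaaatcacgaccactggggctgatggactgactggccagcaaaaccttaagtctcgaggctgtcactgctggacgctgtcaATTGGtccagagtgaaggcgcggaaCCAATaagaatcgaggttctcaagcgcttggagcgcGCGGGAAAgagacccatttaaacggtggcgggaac

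The CHR letters were found in 13 of the 18 matched G2/M members (72.2%), in 1 of the 15 matched S phase members (6.67%, Mcm2) and in 20.2% of the 27025 genes of the table. In all of these 13 G2/M members a CCAAT match lay in the same window, a combination found in 7.97% of all genes. CCAAT, with or without a CHR match, was found in 88.9% of the matched G2/M members, 66.7% of the matched S phase members and 41.1% of all genes. The E2F letters were found in 8 of the 15 matched S phase members (53.3%: Mcm3, Mcm5, Mcm6, Mcm7, Cdc6, Cdt1, Hells and Pclaf), in 0 of the 18 matched G2/M members and in 1.8% of all genes. In Ube2c the CHR match began 29 bases before the start, in Top2a 23 bases before it, and in Cdk1 71 and 15 bases before it. In Mcm6 the E2F matches began 110 and 47 bases before the start, and in Pclaf 5 bases before it. These matches describe letters in a window and were not tied to factor binding in these cells.

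Cells were placed in classes by UMIs of marker genes, of which 5 are compared: urothelial, stromal (fibroblast or smooth muscle and pericyte markers), endothelial, glial and myeloid. Lymphocyte and mesothelial cells were also set apart and entered no comparison. To compare shares of cycling cells at equal depth, each cell was thinned to 2500 UMIs and shallower cells were left out (650 in bladder, 268 at 1 day and 1575 at 7 days). A cell was called G2/M when it had UMIs of at least 3 of the 22 G2/M members. It was called S when it had UMIs of at least 3 of the 18 S phase members and of fewer than 3 G2/M members. Many cells called G2/M also carried S phase transcripts: 48.9% of those in the 1-day stroma had UMIs of at least 3 S phase members. The S share therefore leaves out cells in which transcripts of both phases overlap.

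G2/M cells made up 0.365% of bladder stroma (8 of 2190 cells [0.158 to 0.719%]), 26.6% of 1-day stroma (1395 of 5235 [25.5 to 27.9%]) and 18.2% of 7-day stroma (665 of 3645 [17 to 19.5%]). The 1-day share was 72.9-fold that of bladder [36.9 to 169.3], a log2 ratio of 6.19. The log2 ratio was 4.84 with calls from 2 members and 4.23 [2.37 to 7.27] among cells with at least 10000 UMIs, where the shares were 1.46 and 27.3%. Within the 7-day library nearly all G2/M stromal cells lay on the assembloid side, with 663 of 3108 cells (21.3%), against 2 of 537 (0.372%) on the bladder side. The bladder side and the bladder library could not be distinguished at this count, with a ratio of 1.02 [0.105 to 5.11]. From 1 to 7 days the stromal share was lower, by a ratio of 0.685 [0.623 to 0.751] over all cells and of 0.801 [0.729 to 0.879] on the assembloid side. Cells higher for fibroblast markers had shares of 0.158, 28.7 and 18.6% in bladder, 1 day and 7 days, and cells higher for smooth muscle and pericyte markers had 0.65, 19.4 and 16.6%. On the assembloid side the 7-day shares of these groups were 21.6 and 20%.

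In the urothelium the shares were low in every library. G2/M cells made up 0.0376% in bladder (1 of 2661 cells [0.000951 to 0.209%]), 2.8% at 1 day (38 of 1357 [1.99 to 3.82%]) and 0.585% at 7 days (12 of 2052 [0.303 to 1.02%]). The ratio of 1 day over bladder, 74.5 [12.6 to 3019.7], rests on 1 bladder cell. At 7 days the assembloid side had 1.81% (11 of 609) and the bladder side 0.0693% (1 of 1443). The ratio of 7 days over 1 day was 0.209 [0.0993 to 0.408] over all cells and 0.645 [0.297 to 1.29] on the assembloid side, where the interval includes equality. Among urothelial cells with at least 10000 UMIs the 1-day share was higher, 10.2%, beside 0.94% at 7 days. Their log2 ratio was −3.44 [−5.07 to −1.90].

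Endothelial cells were the class with the most G2/M cells in bladder by number, 14 of 974 (1.44% [0.788 to 2.4%]), and they reached 9.72% at 1 day (42 of 432 [7.1 to 12.9%]). The ratio was 6.76 [3.62 to 13.4]. At 7 days the share was 6.05% (37 of 612 [4.29 to 8.24%]), with 9.32% on the assembloid side and 2.41% on the bladder side. Among cells with at least 10000 UMIs the endothelial shares at 1 and 7 days were 15.3 and 16%, a log2 ratio of 0.06 [−0.76 to 0.88]. Myeloid cells, identified by macrophage markers such as Lyz2 and C1qa, had the highest shares at both assembloid ages, 35.9% (28 of 78 [25.3 to 47.6%]) and 34.5% (19 of 55 [22.2 to 48.6%]), against 1 of 40 cells (2.5% [0.0633 to 13.2%]) in bladder. All 19 myeloid G2/M cells at 7 days lay on the assembloid side (38.8% of its 49 cells). Among myeloid cells with at least 10000 UMIs the bladder share was 50%, beside 54.5% at 1 day and 42.1% at 7 days. The log2 ratios over bladder were 0.13 [−2.63 to 5.54] and −0.25 [−2.93 to 5.14]. Bladder held only 1 myeloid G2/M cell, so the deeper cells cannot show whether the difference from bladder holds. Glial cells had 1.86% in bladder (3 of 161 [0.386 to 5.35%]), 4.62% at 1 day (23 of 498 [2.95 to 6.85%]) and 16.7% at 7 days (8 of 48 [7.48 to 30.2%]). The glial ratio of 1 day over bladder, 2.48 [0.749 to 12.9], has an interval that includes equality, and that of 7 days over 1 day was 3.61 [1.4 to 8.36], a log2 ratio of 1.85. Without thinning the latter had a log2 value of 0.15 [−0.93 to 1.12]. With thinning to 5000 UMIs the log2 glial ratio over bladder was −0.87 [−2.87 to 2.25] at 1 day and 0.71 [−1.61 to 3.98] at 7 days. In cells with at least 10000 UMIs it was −3.50 [−9.80 to 2.79] at 1 day and −0.42 [−3.46 to 5.11] at 7 days. The glial shares there were 33.3% in bladder, 2.94% at 1 day and 25% at 7 days. All of these intervals include equality, and bladder held only 3 glial G2/M cells at 2500 UMIs, so the deeper cells set no direction. Of the 154 glial cells at 7 days, 106 were too shallow to enter, and 46 of the 48 that entered lay on the assembloid side. At the same depth within the 1-day library the G2/M share thus ran from 2.8% in urothelium to 35.9% in myeloid cells.

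**Figure D1:**
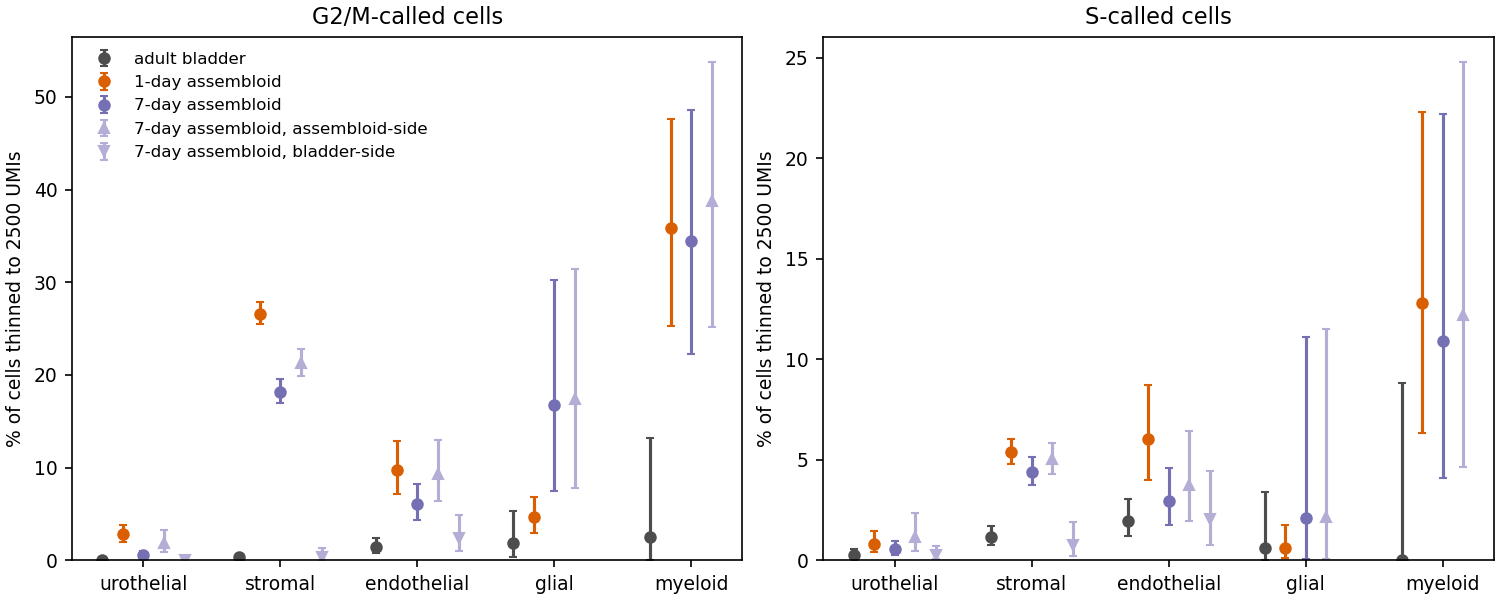
Percent of cells called G2/M and S (vertical axis) in each cell class, for adult bladder, 1-day and 7-day assembloid and both sides of the 7-day library, at 2500 UMIs per cell with 95% exact binomial intervals as bars. Stromal G2/M shares run from 0.365% in bladder to 26.6% at 1 day and 21.3% on the assembloid side at 7 days, and sets with fewer than 20 cells are not drawn.

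In stroma the S shares were 1.14% in bladder, 5.39% at 1 day and 4.39% at 7 days (5.02% on the assembloid side and 0.745% on the bladder side). The stromal log2 ratio of 1 day over bladder was 2.24, and it was 0.49 with calls from 2 members and 4.43 with calls from 4. Endothelial cells had 1.95, 6.02 and 2.94%, urothelial cells 0.263, 0.811 and 0.536%, and glial cells 0.621, 0.602 and 2.08%. Myeloid cells had 0 of 40 in bladder, then 12.8% and 10.9%. That 0 allows a share of up to 7.5% by a limit of 3 counts and 8.81% by the exact interval. On the assembloid side at 7 days the S share was 3.73% in endothelial, 1.15% in urothelial, 2.17% in glial and 12.2% in myeloid cells, and on the bladder side it was 2.07% in endothelial and 0.277% in urothelial cells. The urothelial ratio of 7 days over 1 day was 0.661 [0.26 to 1.68] over all cells and 1.42 [0.466 to 4.01] on the assembloid side, so its direction turned, and both intervals include equality. Genes of a separate list of 30 other S phase genes, which took no part in the calls, were 1.91-fold [1.44 to 2.49] as abundant in S-called as in uncalled cells of bladder stroma and 1.17-fold [0.378 to 2.73] in bladder urothelium. In 1-day stroma the same list stood at 3.93-fold [3.65 to 4.22] and in 7-day stroma at 4.83-fold. Without thinning, 32% of bladder urothelial cells (median 21250 UMIs) would have been called S, against 0.263% at equal depth.

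The number of G2/M members per cell shows the same contrast without a threshold. In bladder stroma 90% of cells had no UMI of any G2/M member at 2500 UMIs, against 51.1% at 1 day and 63.9% at 7 days. Bladder urothelium, the class with the lowest share of G2/M cells, had none in 96.6%. UMIs of 10 or more G2/M members were found in 3 bladder stromal cells (0.137%), 281 cells at 1 day (5.37%) and 125 cells at 7 days (3.43%). Just outside the call, with 2 members, lay 17, 317 and 165 stromal cells, and just inside it, with 3 members, lay 2, 204 and 97. The part of free RNA in the calls was not tested.

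**Figure D2:**
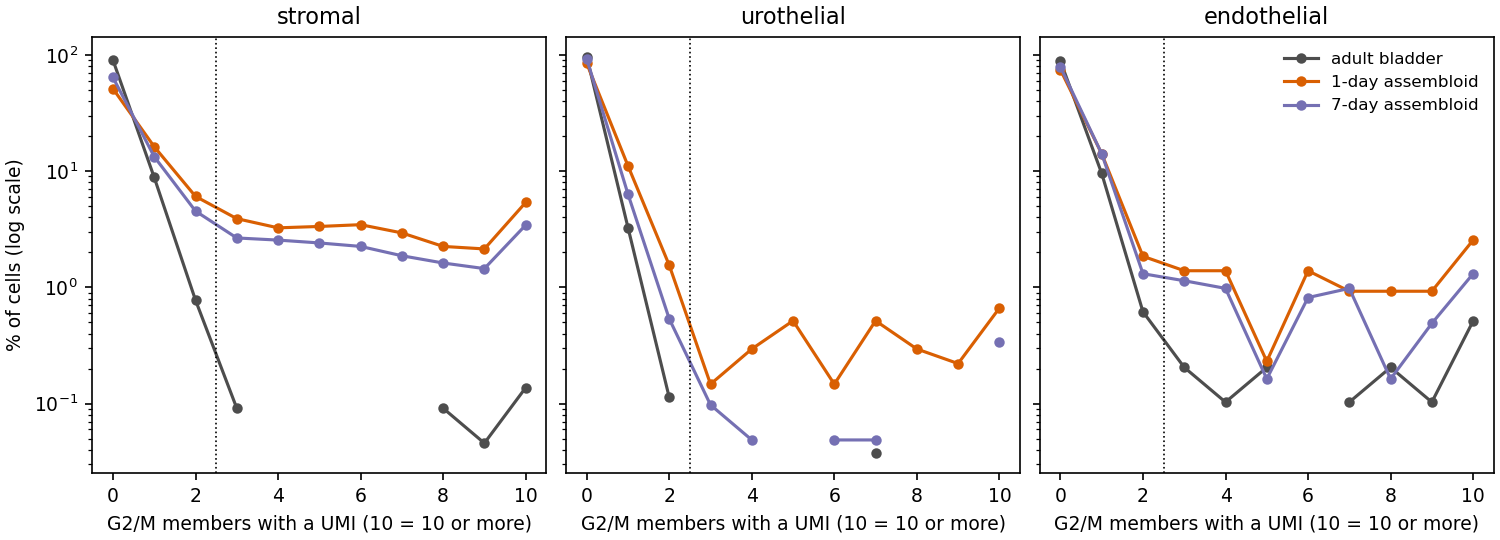
Percent of cells (vertical log axis) by the number of G2/M members with a UMI (horizontal axis, 10 stands for 10 or more), at 2500 UMIs per cell. The dotted line marks the call at 3 members, and in stroma 0.137% of bladder cells and 5.37% of 1-day cells had 10 or more G2/M members.

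Levels of single members were taken from UMIs summed over all cells of a class and given as counts per 1000000 UMIs of the class (CPM). With 3′ counting 1 UMI stands for 1 captured transcript of any length, so CPM values were not divided by length. A gene was called higher or lower at a 2-fold difference among genes with a mean of at least 5 CPM over the 2 libraries compared. In stroma, the enzymes and cofactors of DNA synthesis had the highest mean CPM over the libraries among the S phase members. Pclaf, a protein that binds the replication clamp PCNA, had 2.2 CPM in bladder, 111.3 at 1 day and 95.5 at 7 days. Rrm2, the regulated subunit of ribonucleotide reductase, had 3.44, 59 and 56.7 CPM, and Tyms, thymidylate synthase, had 11.8, 73.5 and 56 CPM. Rrm1, the large subunit of ribonucleotide reductase, had 43.2, 86.7 and 67.7 CPM, and its log2 ratio of 1 day over bladder was 1.00. Both assembloid libraries were above bladder for these 4 genes, with log2 ratios at 1 day of 5.64 [5.15 to 6.23] for Pclaf, 4.08 for Rrm2 and 2.63 for Tyms.

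Members of the replication machinery itself differed in direction. Mcm5 had a log2 ratio of 2.88 and Mcm2 of 2.05, whereas Mcm6 stood at 1.22, Mcm7 at 1.04 and Mcm4 at 1.00, just below the 2-fold call. These are subunits of 1 helicase. Gins2, of the GINS complex that joins this helicase, had a log2 ratio of 3.81. Ccne1, the cyclin that acts at entry into S phase, had 13.1, 31.7 and 30.9 CPM. Pcna, the replication clamp, was the opposite: 37.8 CPM in bladder, 20.5 at 1 day and 21.7 at 7 days, a log2 ratio of −0.88 [−1.02 to −0.74]. Cdc6, which loads the helicase, was also lower at 1 day (5.11 CPM) than in bladder (10.1 CPM), by −0.99. Neither Pcna nor Cdc6 reached the 2-fold call at 1 day. In the thinned cells of bladder stroma, 2.62% of the Pcna UMIs lay in cells called from the other 39 members, which were 1.05% of cells. At 1 day the called cells were 31.8% of cells and held 61.7% of the Pcna UMIs, so most of this contrast follows the number of cells called.

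The G2/M members of stroma were higher in both assembloid libraries. Ube2c, the ubiquitin-conjugating enzyme of the anaphase-promoting complex, had 4.4 CPM in bladder, 178.5 at 1 day and 138.7 at 7 days. Birc5 (survivin), of the chromosomal passenger complex, had 2.13, 102.9 and 87.1 CPM. Cdk1, the kinase that drives entry into mitosis, had 3.52, 101.3 and 86.2 CPM. Top2a, the topoisomerase that untangles sister chromatids, had 6.82, 88.1 and 81.2 CPM, and Tpx2, a spindle assembly factor, had 3.66, 75.8 and 64.4 CPM. In each of these genes the 1-day library was highest, the 7-day library close below it and bladder far below both. Cenpa, the centromeric histone H3 variant, had the highest bladder level, 17.2 CPM against 73 and 56.3 CPM, and its log2 ratio of 2.09 was the lowest of the 22. Log2 ratios at 1 day were 5.57 for Birc5, 5.33 [4.98 to 5.73] for Ube2c, 4.83 for Cdk1, 4.29 for the proliferation antigen Mki67 and 3.68 for Top2a. The 16 G2/M members not among the 6 highest ranged from 0.366 (Bub1) to 6.01 CPM (Prc1) in bladder and from 11.5 (Bub1) to 71.5 CPM (Prc1) at 1 day.

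**Figure D3:**
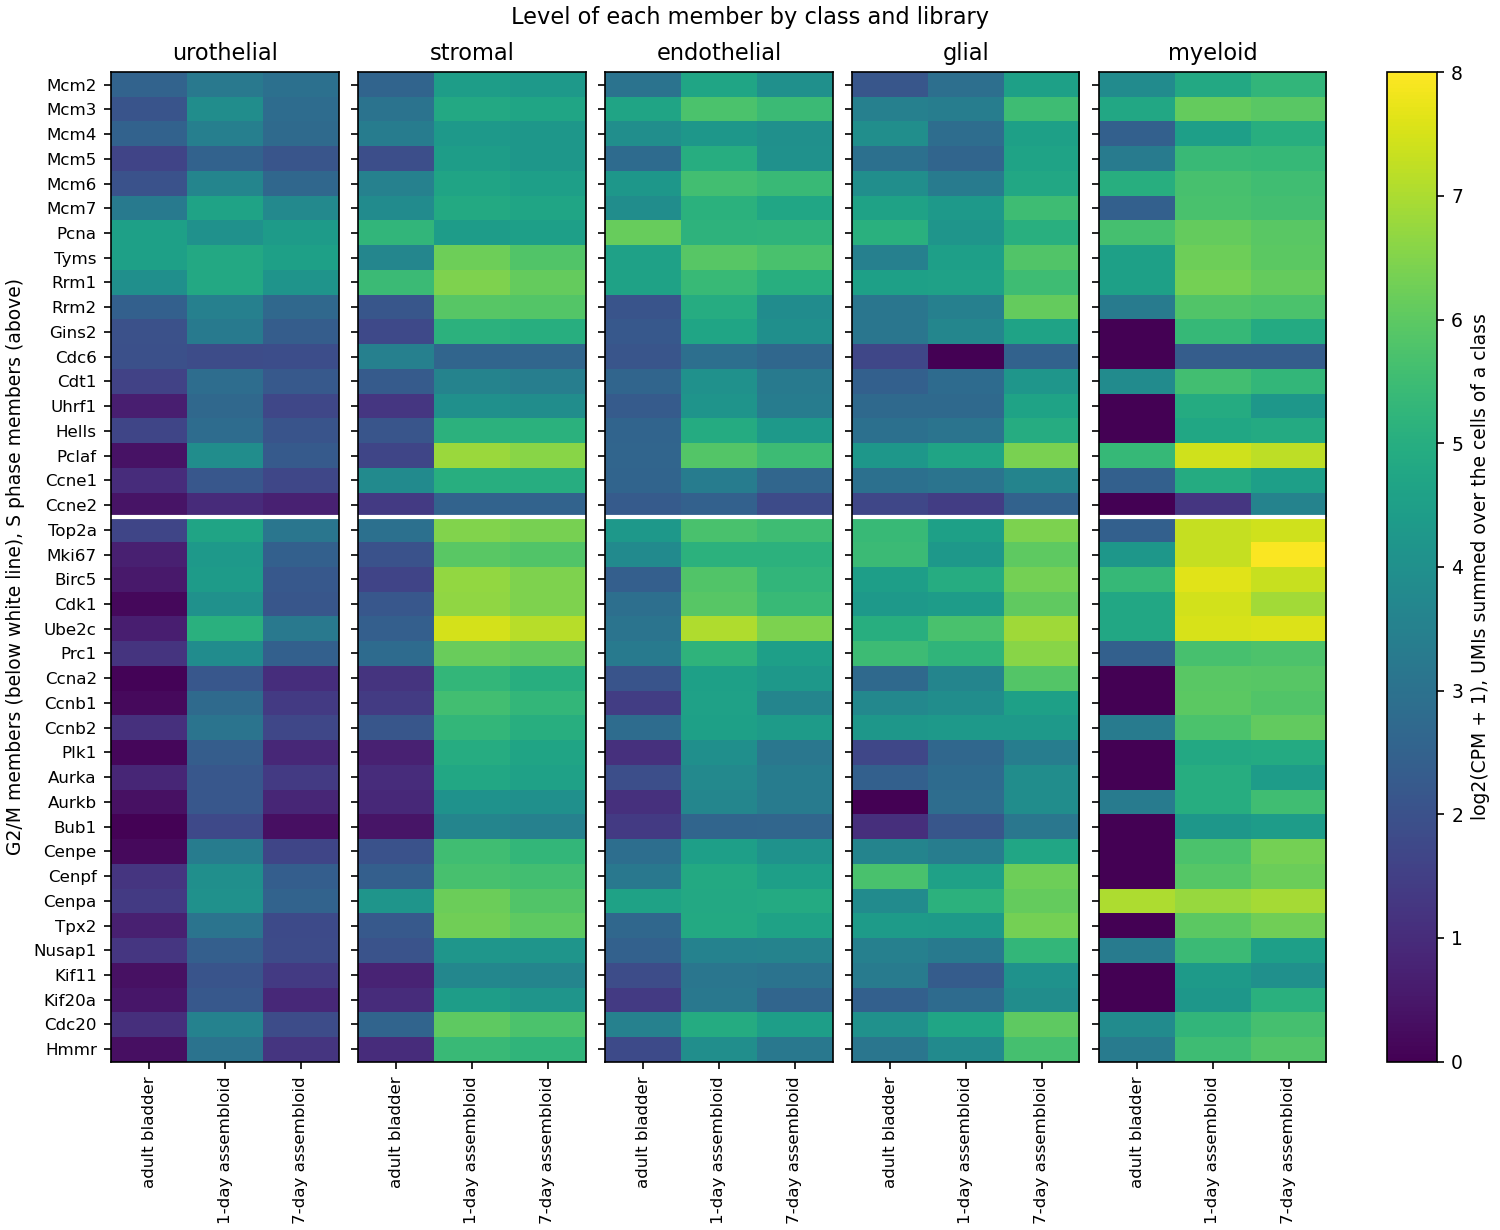
Level of each of the 40 members as log2(CPM + 1), shown by colour, in each class and library. In stroma the G2/M members lie between 0.366 and 17.2 CPM in bladder and between 11.5 and 178.5 CPM at 1 day.

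By count, all 22 G2/M members were at least 2-fold higher in 1-day stroma than in bladder stroma, and all passed the level filter. Of the 17 S phase members past the filter 14 were higher and 0 lower, and Ccne2 (1.54 and 4.86 CPM) did not pass. Over all 10029 genes compared, 15.2% were higher and 21.6% lower. The median log2 ratio was 4.30 for the G2/M members and 1.92 for the S phase members, against −0.03 for all genes. At 7 days against bladder, which shares the bladder library with the comparison above, 22 of 22 and 12 of 17 were higher, with 13.6% of all genes higher and 19.2% lower. The assembloid side alone had the same counts higher and 1 S phase member lower (Cdc6, log2 ratio −1.01), with 14.3% of all genes higher and 19.9% lower. Between the assembloid ages 0 of 22 and 0 of 17 differed by 2-fold, where 1.8% of all genes were higher at 7 days and 0.0639% lower. All 22 G2/M members nevertheless stood below 0, from −0.37 (Cenpa) to −0.05 (Nusap1). On the assembloid side alone 0 of 22 and 0 of 17 differed by 2-fold as well, where 0.857% of all genes were higher and 0.0536% lower, and Nusap1 alone of the G2/M members stood above 0 (0.01). On the bladder side of the 7-day stroma, 0 of 5 G2/M and 0 of 10 S phase members past the filter differed from bladder, where 0.0906% of all genes were higher and 0.252% lower. The summed G2/M level there was 81.7 CPM, beside 74.2 in bladder and 1067.9 on the assembloid side.

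Other properties of the stromal class differed between the same libraries. The median summed level of the 12 fibroblast markers was 41973.6 CPM in bladder, 8538 at 1 day and 11351.8 at 7 days. That of the smooth muscle and pericyte markers was 200.1, 1703.8 and 1143.9 CPM, and that of urothelial markers 156.4, 0 and 17.5 CPM. Median depth was 5174.5, 19304 and 17974 UMIs before thinning, and 1258 of the 5335 stromal cells at 1 day lay near the class limit, against 35 of 2506 in bladder. Endothelial markers had medians of 158.7, 97.2 and 91.9 CPM, and the glial, myeloid, lymphocyte and mesothelial markers had medians of 0 in all 3 libraries. Whether these differences have a part in the shares was not tested.

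In the urothelium the G2/M members started from levels near 0. Ube2c had 0.61 CPM in bladder, 32.7 at 1 day and 8.47 at 7 days. Top2a had 2.17, 24.7 and 7.77 CPM, Mki67 0.626, 18.7 and 4.43 CPM, and Birc5 0.469, 20 and 3.64 CPM. Each was highest at 1 day, with 7 days between. Cdk1 had the highest log2 ratio of 1 day over bladder, 6.87 [5.93 to 8.19], from 8 UMIs over 2701 bladder cells. Among the S phase members Pclaf again led with 5.48 [4.81 to 6.27], from 0.313 to 14.2 CPM. Tyms, the highest S phase member there, was nearly level, with 22.5, 27.3 and 22.3 CPM, and Pcna had 22.4, 15.6 and 19.9 CPM. Mcm7 and Mcm3, both helicase subunits, had 8.63, 24.1 and 12.6 CPM and 3.19, 14 and 6.13 CPM.

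At 1 day 9 of 9 G2/M and 7 of 11 S phase members past the filter were at least 2-fold higher in urothelium than in bladder, where 13.1% of all genes were higher and 6.27% lower. The other 13 G2/M members, among them Ccna2, Ccnb1 and Plk1, did not reach the level filter. A member near 0 in bladder passed it only through its 1-day level, so the 9 of 9 is no count over the 22. From 1 to 7 days, 10 of 10 G2/M members and 4 of 11 S phase members (Mcm3, Mcm6, Gins2 and Pclaf) were at least 2-fold lower, where 5.49% of all genes were lower and 4% higher. With the assembloid side alone, 1 of 14 G2/M members (Birc5, log2 ratio −1.33) and 0 of 15 S phase members were lower, where 0.174% of all genes were lower and 0.076% higher. The bladder side made up 1497 of the 2133 urothelial cells at 7 days, and its summed G2/M level was 29 CPM, beside 15 in bladder and 158.5 on the assembloid side. Against bladder, no G2/M member of all 7-day urothelial cells passed the filter and 0 of 6 S phase members differed, where 1.58% of all genes were higher and 0.023% lower. On the assembloid side 6 of 6 and 6 of 10 were higher, where 12.5% of all genes were higher and 6.14% lower. The other 16 G2/M members did not pass the filter there, and a member near 0 in bladder passed only through its assembloid-side level, so the 6 of 6 is no count over the 22. The 10 of 10 lower from 1 to 7 days likewise includes only members whose 1-day level took them past the filter.

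In endothelial cells Ube2c had 7.52 CPM in bladder, 131.8 at 1 day and 84.7 at 7 days, and Cdk1 had 6.5, 59.7 and 41 CPM. Top2a had 18.1, 51.3 and 44.6 CPM and Mki67 13.2, 34.1 and 34.1 CPM, so bladder levels were higher than in stroma. Cenpa was nearly level, with 23.6, 27.6 and 28.9 CPM and a log2 ratio of 0.23 [−0.12 to 0.58]. Of the S phase members Pclaf had 5.06, 57.1 and 43.7 CPM, and Mcm3 and Mcm6 had 24.7, 52 and 43.1 CPM and 17.8, 46.4 and 41.7 CPM. Pcna was the highest S phase member in bladder, 69.5 CPM, and had 35.4 and 35.6 CPM in the assembloids, a log2 ratio of −0.97 [−1.24 to −0.71]. At 1 day 19 of 20 G2/M and 12 of 16 S phase members past the filter were higher and 0 lower, where 20.7% of all genes were higher and 21.3% lower. At 7 days 17 of 18 and 9 of 16 were higher than in bladder, where 11.1% of all genes were higher and 9.97% lower. From 1 to 7 days 0 of 22 G2/M members and 1 of 17 S phase members (Rrm2, 30.3 and 13.9 CPM) were lower, where 8.6% of all genes were higher and 2.21% lower. With the assembloid side alone, 0 of 22 and 0 of 17 differed between the ages, where 2.05% of all genes were higher and 1.16% lower. Against bladder the assembloid side had 19 of 20 and 11 of 15 higher and Pcna lower, where 18.4% of all genes were higher and 19.3% lower. Bub1 and Kif20a did not pass the filter in any of these comparisons with bladder. The 16 G2/M members not among the 6 highest had a median of 2.96 CPM in bladder. A member below 5 CPM in bladder passed only through its assembloid level, so these are no counts over the 22 or the 18.

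**Figure D4:**
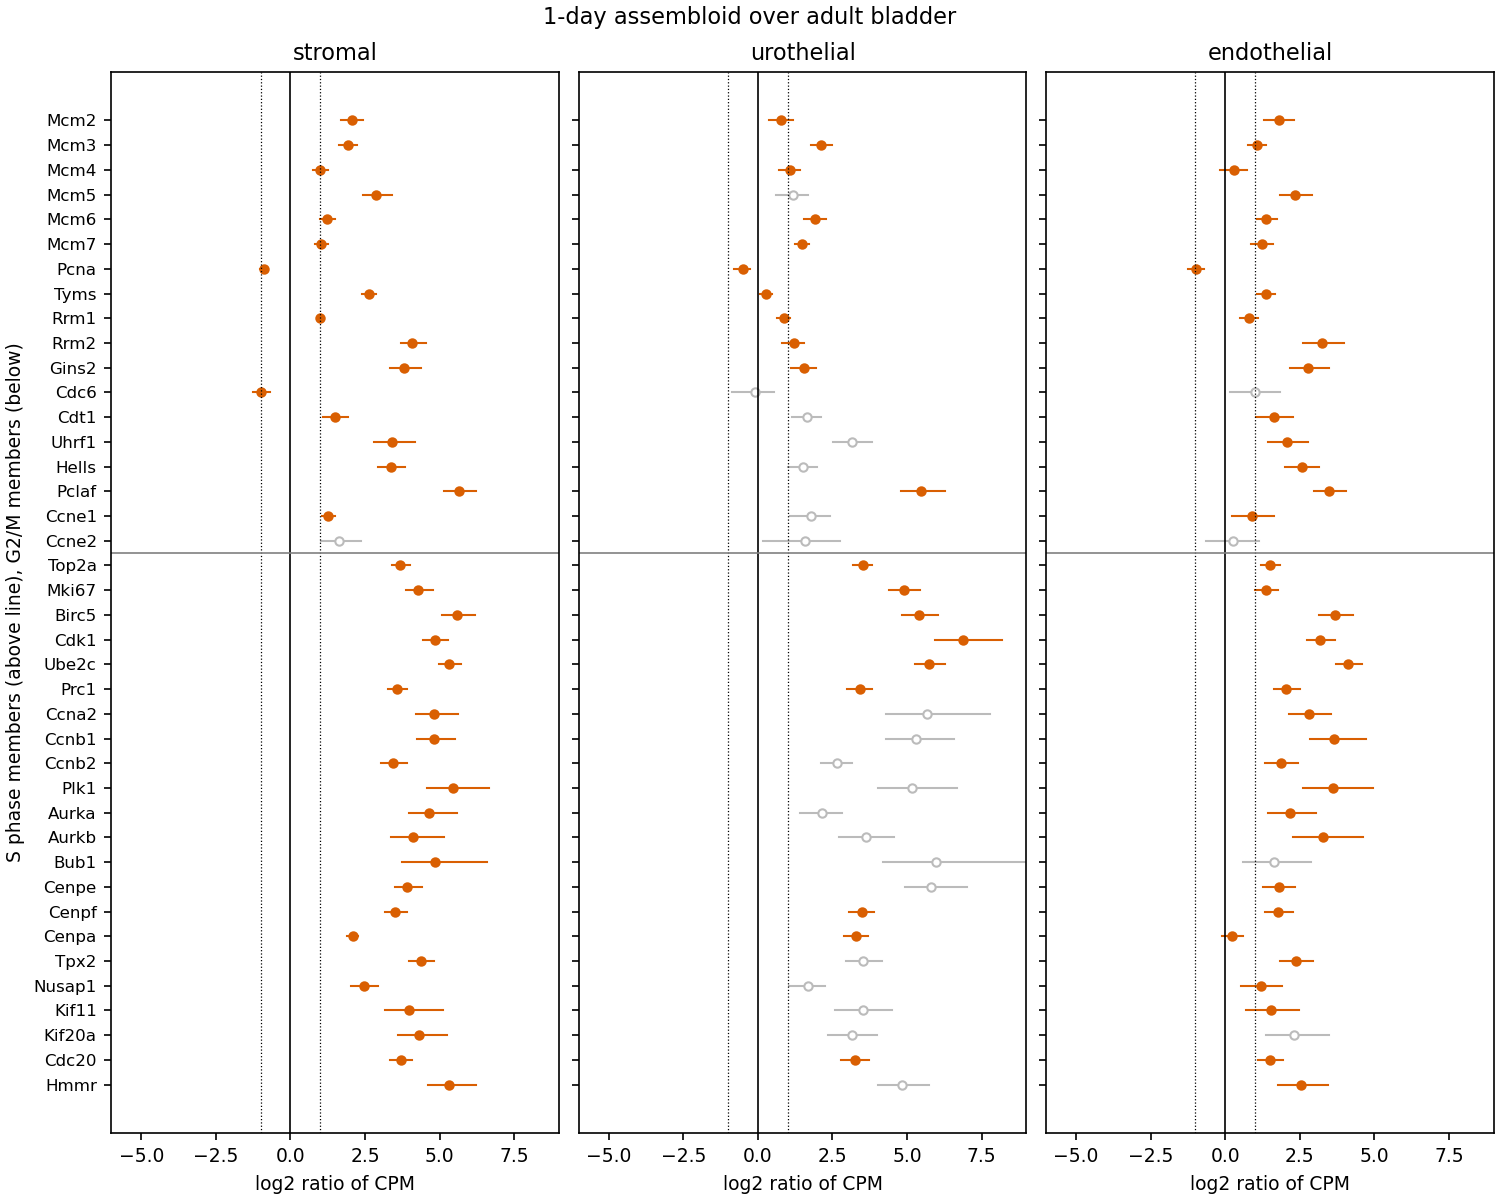
Log2 ratio of CPM, 1-day assembloid over adult bladder (horizontal axis), for each member in stromal, urothelial and endothelial cells, with 95% counting intervals as bars, filled points past the 5 CPM filter, open points below it and dotted lines at 2-fold. Stromal G2/M members lie between 2.09 (Cenpa) and 5.57 (Birc5), and Pcna lies left of 0 in the 3 classes.

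Glial cells gave another order. Ube2c had 31.5 CPM in bladder, 50.9 at 1 day and 114.4 at 7 days. Top2a had 40.5, 22.3 and 84.2 CPM, Mki67 42.7, 18.3 and 63.5 CPM, and Prc1, which bundles the microtubules of the central spindle, 43.8, 36.9 and 93.7 CPM. The 7-day library was highest for all 4, and the 1-day library was lowest for 3 of them. At 1 day against bladder 1 of 19 G2/M members was higher (Cenpa) and 3 were lower (Mki67, Cenpf and Kif11), where 12% of all genes were higher and 23.2% lower. In the thinned bladder glial cells, called cells held 90% of the Cenpf UMIs, and Kif11 had 1 UMI. The 3 lower calls therefore rest on few bladder cells. Of 15 S phase members 1 was higher (Tyms) and 1 lower (Mcm4). From 1 to 7 days 18 of 22 G2/M and 13 of 16 S phase members were higher, where 11.5% of all genes were higher and 4.88% lower. On the assembloid side alone, 21 of 22 and 15 of 16 were higher, where 8.28% of all genes were higher and 6.14% lower. Against bladder 16 of 21 and 10 of 16 were higher at 7 days, where 11% of all genes were higher and 17.9% lower, and 19 of 22 and 14 of 16 on the assembloid side, where 14.7% were higher and 23.6% lower. Rrm2 had 7.87, 10.3 and 68.3 CPM and Pclaf 18, 24.3 and 82.6 CPM. Of the 676 G2/M UMIs in 7-day glial cells, 670 came from the 46 cells of the assembloid side. In the glial class, fibroblast markers had median levels of 8406.9, 3429.9 and 5587.5 CPM beside 8349.7, 2850.8 and 6587.3 CPM for glial markers, and 310 of the 511 cells at 1 day lay near the class limit. Their part in these values was not tested.

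Myeloid cells had the highest summed G2/M levels of the 5 classes in both assembloid libraries, 1641.2 CPM at 1 day and 1760.6 CPM at 7 days, and 299.4 CPM in bladder from 67 UMIs. Top2a had 4.47 CPM in bladder (1 UMI), 156.4 at 1 day and 171.7 at 7 days. Mki67 had 17.9, 157.8 and 247.2 CPM and Birc5 40.2, 196.5 and 159.3 CPM. The exception was Cenpa, with 129.6, 107.9 and 120.9 CPM. Of the 16 G2/M members not among the 6 highest, 10 had no UMI in bladder myeloid cells. At 1 day 21 of 22 G2/M and 13 of 16 S phase members were higher than in bladder, where 20.5% of all genes were higher and 22.7% lower. Between the assembloid ages 0 of 22 G2/M members differed, and of 17 S phase members Ccne2 was higher at 7 days, where 5.74% of all genes were higher and 4.26% lower. The assembloid side gave the same counts, where 5.13% of all genes were higher and 4.25% lower. At 7 days 21 of 22 and 15 of 17 were higher than in bladder, where 19.9% of all genes were higher and 22.1% lower, and the assembloid side gave the same counts, where 21.4% were higher and 22.6% lower. The class holds 51, 84 and 80 cells, which limits each of these values.

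To see where the UMIs of each member lie, stromal cells were called again from the other 39 members. In 1-day stroma 31 to 32% of cells were then called S or G2/M, and they held between 72.8% (Ccnb2, a mitotic cyclin) and 96.7% (Kif11, a spindle kinesin) of the UMIs of the G2/M members, with a median of 91.7%. For the S phase members the share ran from 52.2% (Cdt1) to 86.2% (Pclaf), with a median of 67.4%. At 7 days the ranges were 69.2% (Ccnb2) to 95.9% (Plk1, a mitotic kinase) and 45.6% (Cdc6) to 88.4% (Pclaf). Ube2c stood at 543.7 CPM in G2/M-called cells of the 1-day stroma, 93.7 CPM in S-called and 26.4 CPM in uncalled cells. In bladder stroma 6 G2/M members had at least 20 UMIs, and called cells, 1.51% of cells or fewer, held 5.41% (Cenpa) to 60.9% (Ube2c) of them. Cenpa in bladder stroma thus lay mostly in cells that the other 39 members did not call, and the bladder S phase members had a median of 2.62% of UMIs in called cells.

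**Figure D5:**
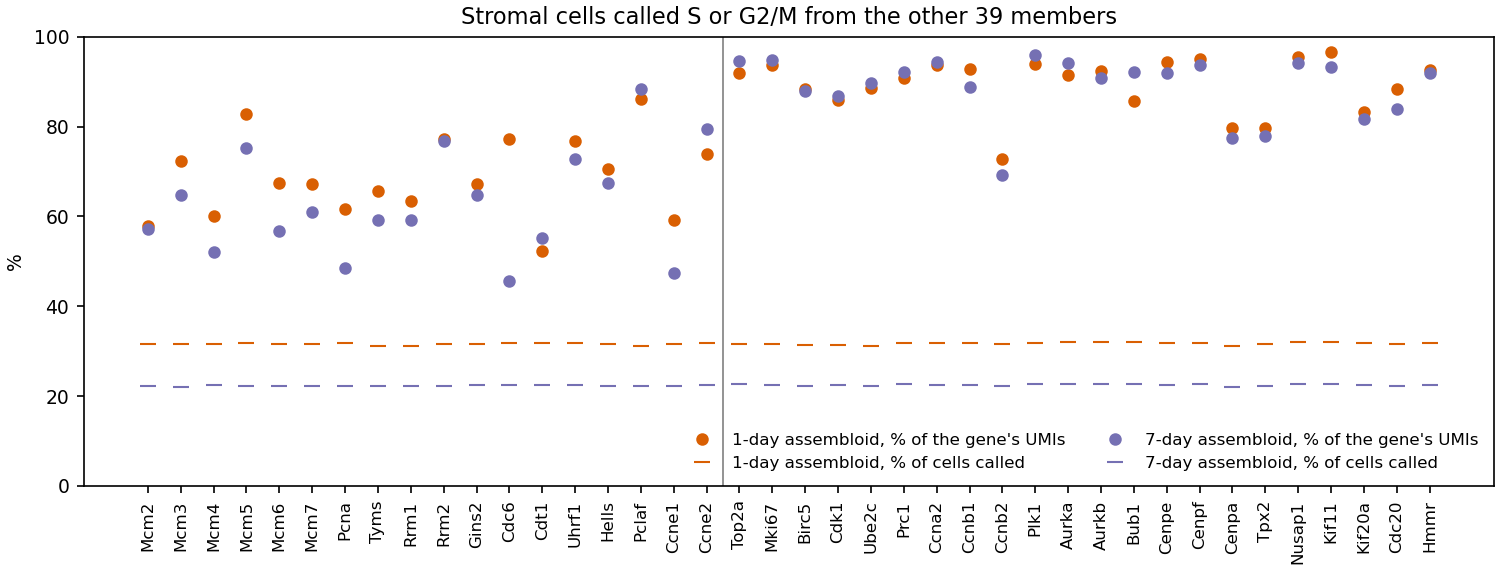
Percent of each member's UMIs (vertical axis) that lie in stromal cells called S or G2/M from the other 39 members. Members, each with at least 20 UMIs, run along the horizontal axis, and dashes give the percent of cells called. At 1 day G2/M members lie between 72.8 and 96.7% and S phase members between 52.2 and 86.2%.

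A separate list of 40 other G2/M genes, used in no call, was higher in G2/M-called than in uncalled cells of the sets given here. In 1-day stroma the 26.6% of cells called G2/M held 69% of its UMIs, 6.91-fold [6.66 to 7.17] the level per uncalled cell, and in 7-day stroma the factor was 8.83. The 8 G2/M cells of bladder stroma stood at 20-fold [16.3 to 24.2], so the few cells called there carried the other mitotic genes as well. In endothelial cells the factors were 12 in bladder, 8.69 at 1 day and 10.4 at 7 days, and in 1-day urothelium 14.2. A list of 14 genes of G1 entry (D-type cyclins, Cdk4, E2f1 and others) stood at 0.953-fold in G2/M-called and 1.03-fold in S-called cells of 1-day stroma. In 7-day stroma the factors were 1.17 [1.11 to 1.23] and 1.35 [1.24 to 1.47], and in 1-day urothelium 1.65 [1.31 to 2.05] and 1.81 [1.19 to 2.65]. A list of 14 genes of quiescence and CDK inhibitors was lower in S-called stromal cells of the assembloids, at 0.75-fold [0.684 to 0.82] at 1 day and 0.643-fold at 7 days. In S-called cells of bladder stroma it stood at 1.02-fold [0.874 to 1.19]. In G2/M-called stromal cells it stood at 1.04-fold [1 to 1.08] at 1 day and 0.878-fold [0.834 to 0.924] at 7 days.

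Within assembloid stroma the S phase members divided into separate sets by their level in S-called against G2/M-called cells. In both assembloid libraries 11 were higher in S-called cells: Mcm2, Mcm3, Mcm4, Mcm5, Mcm6, Cdc6, Cdt1, Uhrf1, Hells, Ccne1 and Ccne2. The other 6 that gave the same order in both, Mcm7, Tyms, Rrm1, Rrm2, Gins2 and Pclaf, were higher in G2/M-called cells. Cdt1, which licenses origins and is destroyed as S phase begins, had 27.7 CPM in S-called and 11.5 CPM in G2/M-called cells at 1 day, and 42.4 and 18.6 CPM at 7 days. Pclaf had 188.1 and 316.3 CPM at 1 day and 241.7 and 329 CPM at 7 days. Mcm4 at 1 day (34.8 and 33.8 CPM), Mcm2 at 7 days (43 and 42.7 CPM) and Mcm7 at 7 days (59.9 and 60.8 CPM) show how small some of these differences were. Pcna was higher in S-called cells at 1 day (54.8 and 37.8 CPM) and level at 7 days (48.6 and 48.7 CPM). All 22 G2/M members were higher in G2/M-called cells, an order that the exclusion of cells with 3 G2/M members from the S call favours. Likewise the S call asks for 3 S phase members and the G2/M call does not, which favours higher S phase levels in S-called cells.

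The lists around the members showed where stroma differed beyond them. Of the other G2/M genes 31 of 35 past the filter were at least 2-fold higher in 1-day than in bladder stroma, with Cks1b (39.4 and 196 CPM) and Cks2 (23.5 and 121.4 CPM), both small subunits of cyclin-dependent kinases, at the highest levels. Of the other S phase genes 11 of 23 were higher. Dut, which removes dUTP, had 40.2 and 126 CPM, and the histone chaperone Nasp had 114.6 and 57.7 CPM. Of the G1 entry genes 9 of 12 were higher and 1 lower, with Ccnd2 at 323.2 and 731.5 CPM and Cdk4 at 85.2 and 273.4 CPM. Of the quiescence and inhibitor genes 7 of 13 were lower, including Gas1 (794.9 and 44.6 CPM), Btg1 (399.8 and 42.2 CPM) and Btg2 (640 and 105.5 CPM). The 2 that were higher were Cdkn2a (3.88 and 71.6 CPM) and Cdkn2b (7.77 and 102.8 CPM), which encode inhibitors of Cdk4 and Cdk6. Cdkn1a, the gene of p21, had 424.1 and 511.6 CPM. These values are those of the same libraries as above, with 15.2% of all genes higher and 21.6% lower.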

How the data were processed

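The deposited matrices hold raw UMI counts per gene and barcode. Per the submitters' processing notes they were made with Cell Ranger on GRCh38 and mm10, and the file headers give software version 3.1.0. For alignment settings and the annotation release, the sources used here give nothing. From the deposited counts, barcodes with at least 90% mouse UMIs, 500 mouse genes and under 20% mitochondrial UMIs were kept, and doublets called by Scrublet (3.39, 3.28 and 2.41% of bladder, 1-day and 7-day cells) were removed. Between 115 and 147 human barcodes per library were left out. Library totals were 93560608 (bladder), 135955678 (1 day) and 120301672 UMIs (7 days).

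A cell took the class whose marker list had the highest mean log-normalised level, scaled to its 20 highest cells, with a margin of 0.1 and at least 2 markers detected. This scoring rule was set after the data were seen. Sides of the 7-day library came from 30 nearest bladder and 1-day cells in 30 principal components of 2000 variable genes, where over 50% decided. Only the members and the genes of the cell cycle and quiescence lists were kept out of these variable genes. Cells were thinned to 2500 UMIs without replacement. Intervals are exact: Clopper-Pearson for shares, Poisson for CPM and conditional binomial for ratios. Log2 ratios used 0.5 added counts and a minimum mean of 5 CPM.

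The members and lists were chosen with earlier results of these data known. Named are, per class, up to 6 members of each phase and up to 4 genes of each other list with the highest mean CPM over the libraries, and outside the lists the 10 genes with the highest ratio of G2/M-called over uncalled cells that held in both assembloid libraries, with at least 50 CPM in called cells. Other genes are named as extremes, exceptions or short lists, chosen after their values were seen. A gene that the rule names is not reported here. The steps were tested on simulated data. Alternatives covered depth, call rule, cell and level filters, scaling, class margin, shared barcodes and sides. Computation used scanpy 1.11.5 and scikit-learn 1.9.0 with scipy 1.17.1 and numpy 2.4.6, in Python 3.11.15, and plots matplotlib 3.10.9.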

Additional observations from a re-analysis of the deposited data

Results flagged for a closer look

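Cells that no marker list placed in a class entered none of the comparisons above, and they held G2/M cells above the level in bladder. At equal depth 21.2% of the unclassified cells of the 1-day library (82 of 387 [17.2 to 25.6%]) and 30.4% of those of the 7-day library (49 of 161 [23.4 to 38.2%]) were called G2/M, against 4.76% in bladder (2 of 42 [0.582 to 16.2%]). All 49 at 7 days lay on the assembloid side, where they made up 34.5% of 142 cells. Unclassified cells were 1.06% of bladder, 5.11% of 1-day and 2.89% of 7-day cells, with median fibroblast marker levels of 295, 3378.4 and 1549.8 CPM.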

How the results depend on the processing

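Across 28 ratios of S and G2/M shares, another seed, no doublet filter, a filter at 1000 genes and 10% mitochondrial UMIs, unshared barcodes and, for the 26 ratios it gave, a class margin of 0.2 moved none beyond its counting interval. Values are log2 ratios. Thinned to 1500 UMIs, S ratios over bladder were 3.51 (urothelium, 1 day and 7 days), 3.93 and 3.12 (stroma, 1 and 7 days), and 4.09 and 2.99 (endothelium), and 7 days over 1 day gave −0.73 (G2/M) and −0.81 (S) in stroma and −1.37 (G2/M) in endothelium. Thinned to 5000 UMIs, stroma gave 1.29 and 0.99 (S, 1 and 7 days over bladder) and −0.33 (G2/M, 7 days over 1 day), and glial G2/M ratios over bladder were −0.87 and 0.71.

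Without thinning, urothelium gave 3.27 (G2/M, 1 day over bladder) and for S −3.03, the reverse direction, 0.98 (7 days over 1 day) and −2.05 (7 days over bladder). G2/M at 7 days over 1 day was −0.70 in stroma, −1.53 in endothelium and 0.15 in glial cells. Endothelial S at 7 days over bladder was −0.51, also of opposite sign. Calls from at least 2 members gave stromal ratios over bladder of 4.84 and 4.32 (G2/M) and 0.49 and 0.27 (S) at 1 and 7 days. Calls from 4 gave S ratios of 4.43 and 4.20 in stroma and 2.76 and 2.26 in endothelium, and calls from 3 UMIs of 2 members gave 1.61 and 1.30 in stroma. The assembloid side alone gave −0.63 (urothelium) and −0.32 (stroma) for G2/M at 7 days over 1 day. Values of the separate lists that took no part in the calls depended more on the settings. With calls from 2 members 12 of them moved and 6 did not, and with calls from 4 members 10 moved and 7 did not. Thinned to 1500 UMIs 10 moved and 8 did not, and thinned to 5000 UMIs 9 moved and 9 did not.

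In an alternative chosen after seeing the data, cells with at least 10000 UMIs were thinned to 2500. Stromal ratios over bladder were 4.23 and 3.91 (G2/M) and 2.93 and 2.78 (S) at 1 and 7 days. G2/M at 7 days over 1 day was −0.31 in stroma, −3.44 in urothelium, 3.09 in glial cells and 0.06 in endothelium, the last reversed. Glial G2/M over bladder was −3.50 at 1 day and −0.42 at 7 days, and myeloid 0.13 and −0.25. Both 7-day values and the 1-day glial value have the opposite sign to those over all cells at 2500 UMIs. For 1-day glial cells that ratio was 1.31 [−0.42 to 3.69]. The intervals of these glial and myeloid ratios include equality, and bladder held only 3 glial and 1 myeloid G2/M cells at 2500 UMIs. Myeloid S at 7 days over 1 day was 1.80, of opposite sign to the −0.23 over all cells at 2500 UMIs. The cause of these shifts was not tested.

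With a minimum of 20 CPM, which tests fewer genes, 14 G2/M and 6 S phase members were higher in stroma at 1 day and 12 and 4 at 7 days. S phase members lower than in bladder stroma numbered 1 at 1 day with means of per-cell shares, 2 and 2 at 1 and 7 days with a 1.5-fold call, and 1 at 7 days on the assembloid side. Depth limits the bladder S calls, the glial cells at 7 days and the myeloid class. No paired analysis was possible because each group is 1 library.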

Other observations

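Outside every list, the genes that differed most between G2/M-called and uncalled stromal cells in both assembloid libraries were Pimreg, Hist1h1b, Kif20b, Hist1h2ap, Fbxo5, Incenp, Knstrn, Hmgb2, Smc2 and Diaph3. Pimreg had 62.2 CPM in G2/M-called and 1.01 CPM in uncalled stromal cells at 1 day, and 71.6 and 0.993 CPM at 7 days. Replication-dependent histone genes stood out by level. Hist1h2ap, a histone H2A gene, had 533.3 and 20.8 CPM at 1 day and 788 and 19.1 CPM at 7 days, and Hist1h1b, a linker histone gene, had 111.5 and 3.15 CPM and 143.2 and 3.97 CPM. Hist1h2ap has close relatives in the histone clusters, so its reads may be shared with them. Fbxo5, an inhibitor of the anaphase-promoting complex, Incenp, the scaffold of the chromosomal passenger complex, Pimreg, Knstrn and Hist1h2ap were also among the endothelial genes, with Esco2, Sgo2a, Iqgap3 and Plk4. These genes were ranked on the calls themselves, so their values are a description.

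The quiescence and inhibitor list differed in other directions by class. Cdkn2a, which encodes p16INK4a and p19ARF, had 0.454 CPM in bladder urothelium and 42.3 CPM at 1 day, a log2 ratio of 6.52 [6.00 to 7.14]. In glial cells it had 1.12 CPM (1 UMI) and 165.5 CPM. Btg2, an antiproliferative gene, was lower at 1 day in stroma (640 and 105.5 CPM), endothelium (736.5 and 119.7 CPM) and glial cells (706.8 and 44 CPM), but had 540.1 and 866.3 CPM in urothelium. Cdkn1c, the gene of p57, had 111.4 and 5.96 CPM in stroma and 79.4 and 3.1 CPM in endothelium, and Cdkn1a in endothelium had 687.2 and 738.1 CPM. Counted over each list, 7 of 13 genes were at least 2-fold lower in stroma, 9 of 13 in endothelium, 8 of 13 in glial cells and 0 of 11 in urothelium, where 21.6, 21.3, 23.2 and 6.27% of all genes were lower. Whether the urothelium differs from the other classes here was not tested.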
